A study of Mus musculus with 18 samples.

Results

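The genes described here encode nuclear subunits of respiratory chain complexes I, III and IV and of the mitochondrial ATP synthase, complex V, together with assembly factors that share their symbol prefixes. They were taken by symbol, as every gene on the panel whose symbol starts with Nduf, Uqcr, Cox4, Cox5, Cox6, Cox7, Cox8 or Atp5 and whose reads summed to at least 180 over the 18 libraries. This gave 70 of the 77 genes with those prefixes, out of 23930 genes measured. Complex I had 39 members (24 accessory subunits, 7 core subunits, 7 Ndufaf assembly factors and Ndufa4, which is now assigned to complex IV). Complex III had 8, complex IV 11 and complex V 12, of which Atp5s and Atp5sl are not subunits despite their names. The 7 genes below the minimum were Cox6c with 118 reads, Cox8b with 4, Atp5c1-ps with 2, Cox4i2, Cox8c and Ndufa4l2 with 1 each and Cox7b2 with 0. The smallest sums kept were Cox7a1 with 214, Cox6b2 with 376, Cox6a2 with 467 and Cox8a with 491. Cox6a2 and Cox7a1 would have missed the minimum on the libraries outside the zinc-fed pMT-10 groups, where they had 54 and 122 reads. All 70 members passed the filter on low counts.

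The respiratory chain passes electrons from NADH and succinate to oxygen and pumps protons out of the mitochondrial matrix. Complex I takes electrons from NADH, complex III passes them to cytochrome c, and complex IV, cytochrome c oxidase, gives them to oxygen. The ATP synthase lets protons back through its Fo ring and uses the turning stalk to make ATP in its F1 head. The catalytic centres of complex IV and part of complexes I, III and V are encoded in mitochondrial DNA, and those genes are not analysed here. Several complex IV subunits come in pairs of isoforms, with Cox6a2, Cox7a1 and Cox8b made mainly in heart and skeletal muscle and Cox6a1, Cox7a2 and Cox8a in most tissues. Quiescent and memory T cells draw much of their ATP from this chain, and activated T cells enlarge their mitochondria while also turning to glycolysis. IL-10 has been described to favour oxidative metabolism in macrophages.

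RNA came from CD4 and CD8 T cells that had been sorted by fluorescence from mouse bone marrow, and was read with a targeted amplicon kit that amplifies a single short piece of each transcript. 3 kinds of mice were compared after 30 days on their drinking water, with 3 libraries for each kind and cell type (6 groups). C57BL/6 mice on zinc-enriched water are called wild type here. The pMT-10 strain carries a transgene for IL-10 whose metallothionein promoter is switched on by zinc. On zinc-enriched water these mice are called induced and on control water uninduced. The design names 3 mice of each kind, and the labels do not say which mouse a library came from, so p-values measure the spread between these libraries. The metallothionein promoter is not specific to T cells, so the transgene is not limited to the cells that were sorted. Wild-type and induced libraries shared zinc but differed in strain, transgene and sex (the wild-type libraries held Y-linked reads and the pMT-10 libraries Xist reads). Induced and uninduced libraries shared the strain but differed in zinc and in sequencing chip, since all 12 zinc libraries ran on one chip and all 6 others on another. Effects of these paired factors cannot be told apart. Il10 reads numbered 187 to 398 in induced CD4 libraries and 34 to 263 in induced CD8 libraries, against 22 to 105 in control CD4 libraries and 0 in all 6 control CD8 libraries.

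Total counts ran from 10546798 to 18519474 per library, and the 70 genes took 0.87 to 1.24% of them. Cd4 and Cd8a matched the sorts. Cd4 stood at 2191 ± 109 CPM in wild-type CD4 cells and 3.14 ± 2.21 CPM in wild-type CD8 cells (SD, n = 3 each), where CPM is the read count relative to the TMM-scaled library size. Several marker sums moved with the induced CD4 group. The T cell list (5 genes, 0 of them at 0) summed to 6895 to 7716 CPM there, against 4589 to 4733 in wild-type and 3704 to 3797 in uninduced CD4 cells. The NK list (3 genes, Ncr1 at 0) summed to 296 to 377 in the induced, 52.3 to 66.9 in the wild-type and 173 to 197 in the uninduced CD4 libraries. Its genes moved in opposite directions. Eomes had means of 335, 20.2 and 12.3 CPM in the same order, and Klrb1c 9.44, 39.9 and 171. The monocyte list (5 genes, Cd14 at 0) summed to 20.9 to 32.7 against 7.46 to 9.96 and 8.98 to 12. Most of that sum was Cd68, with means of 25.1, 7.61 and 10.2 CPM. The platelet list reached 156 CPM in induced CD4 library 3 and at most 3.67 in every other library. In these bulk libraries a changed share of a cell subset and a changed RNA level per cell cannot be told apart, and the part of these markers in the results was not tested. Within groups, 4 libraries stood apart for the members. Induced CD4 library 2 had the lowest of its group's 3 values for 51 of 70 members. Library 2 of the wild-type, induced and uninduced CD8 groups had the highest for 52, 45 and 47. Those 3 CD8 libraries also had the lowest depth of their group and the largest share of counts in the 10 most abundant genes (12.56, 11.12 and 11.48%).

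Summed over the members of each complex, RNA was lowest in the CD4 control groups and higher in CD8 cells. The 70 members together stood at 8808, 9614 and 9007 CPM in the wild-type CD4 libraries and at 8640.1, 8324 and 9115 in the uninduced ones. In CD8 cells the sums were 11129, 12642 and 10213 in wild type and 11112, 12778 and 10371 in uninduced mice. Every control CD8 library lay above every control CD4 library, and the CD8 mean was 1.24 times the CD4 mean in wild type and 1.31 times in uninduced mice. The means of the induced groups fell between, at 10846, 9097 and 10934 CPM in the CD4 and 10150.4, 11649 and 10247 in the CD8 libraries, and these overlapped (ratio 1.04).

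Complex IV showed the largest ratio of the 4 complexes between induced and control CD4 cells. Its members summed to 2388, 1742 and 2289.9 CPM in induced CD4 libraries, 1614, 1785 and 1633 in wild-type and 1621, 1617 and 1770.2 in uninduced ones, ratios of 1.28 and 1.28. Induced library 2 lay inside the control range and the other libraries above it. Complex V summed to 3085, 2715 and 3086 CPM in induced against 2444, 2302 and 2458 in uninduced CD4 cells, with no overlap (ratio 1.23), and to 2461, 2723 and 2684 in wild type, which overlapped. Complexes I and III overlapped between induced CD4 cells and both controls, with ratios from 1.05 to 1.13. In CD8 cells the induced sums were 0.87 to 0.97 times those of the controls, and only complex III against uninduced cells was free of overlap.

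**Figure D1:**
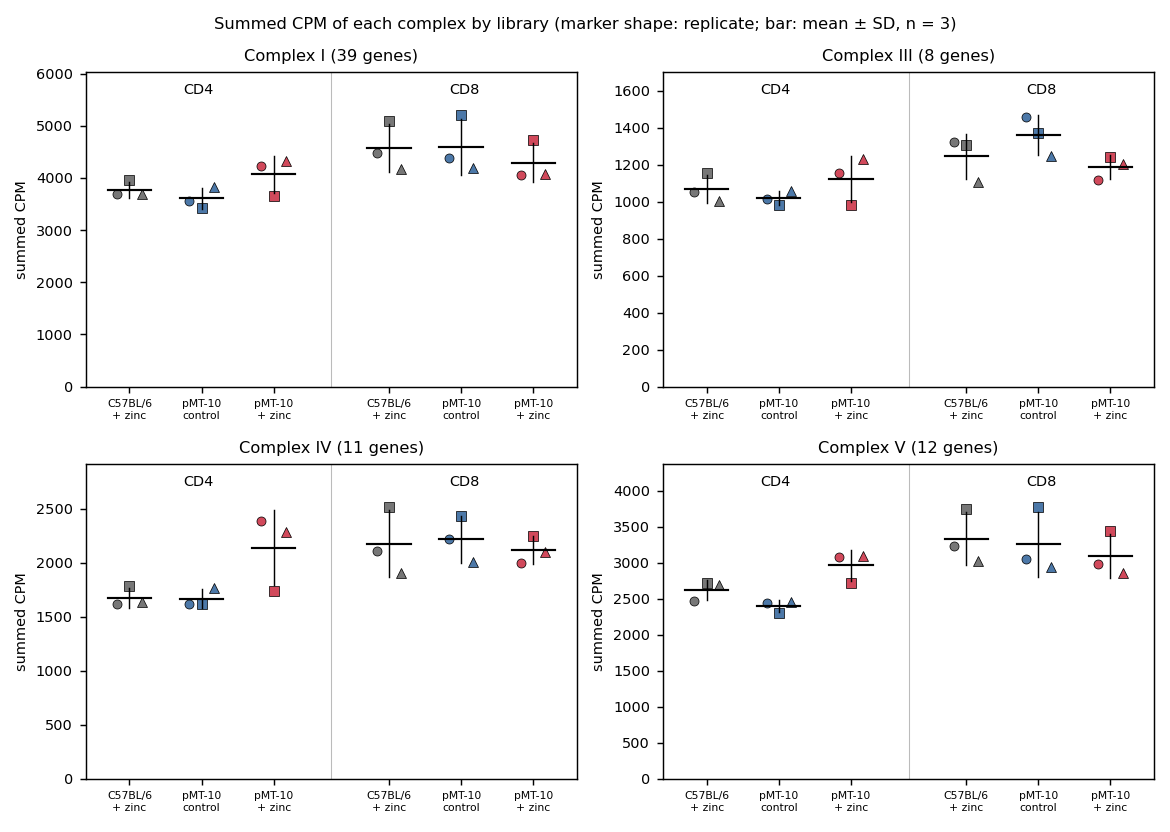
Summed CPM of the members of each complex (one panel a complex), by group; each point is a library and each bar mark the mean of 3 libraries. Control CD8 libraries sit above control CD4 libraries in complexes I, IV and V, while induced CD4 and CD8 libraries overlap in every complex.

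Against wild type, 11 of the 70 members rose and 2 fell in induced CD4 cells at an adjusted p under 0.05 in edgeR's quasi-likelihood test over all 11316 genes tested. Of all genes, 9.29% were called higher and 9.4% lower in this comparison. The members' median log2 fold change was 0.13, and 49 of 70 were positive, beside a median of -0.05 over all genes. The members' median was 0.08 without induced library 3 and 0.21 without induced library 2. Complex IV held 5 of the 11 (of 11 members, median 0.42), complex I 4 higher and 2 lower (of 39, median 0.11), complex III 1 (of 8, median 0.14) and complex V 1 (of 12, median 0.12). Every induced library lay above every wild-type library for 15 members and below for 3, beside 18.6% and 18.8% of all genes. Cox6a2, one of the 5 of complex IV, passed the minimum only through its reads in induced cells. Without it 10 rose and 2 fell of 69, with the members' median at 0.13. The other called members of complex IV were Cox5a, Cox5b, Cox6b1 and Cox7a2, and the complex IV median of 0.42 includes Cox6a2.

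Against uninduced mice, which share the induced libraries with the comparison above, 8 members rose and 0 fell in CD4 cells, where 9.38% of all genes were called higher and 9.4% lower. The median was 0.18 with 56 of 70 positive, beside -0.05 over all genes. Complex IV again held 5 (median 0.42), complex I 2 (median 0.16), complex V 1 (median 0.25) and complex III 0 (median 0.18). Cox6a2 was again one of the 5, and without it 7 of 69 rose, with the members' median at 0.17. The complex IV median of 0.42 again includes Cox6a2. The groups did not overlap for 26 members with induced cells higher and for 3 with them lower, beside 21% and 22.3% of all genes. At an unadjusted p under 0.05 there were 15 members (21.4%) against wild type, beside 31% of all genes, and 20 (28.6%) against uninduced cells, beside 31.2%. The count of risen members against wild type was 2 without induced library 1, 4 without induced library 3, 14 without induced library 2, and 2 and 6 without wild-type libraries 1 and 2. Against uninduced cells it was 4, 5 and 11 without induced libraries 1, 3 and 2, and 5 without uninduced library 1 or 2. Scaling by library size alone, which put the median of all genes at -0.16 and -0.20 in place of -0.05, left the members' medians at 0.03 and 0.04 and 3 and 5 risen members.

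**Figure D2:**
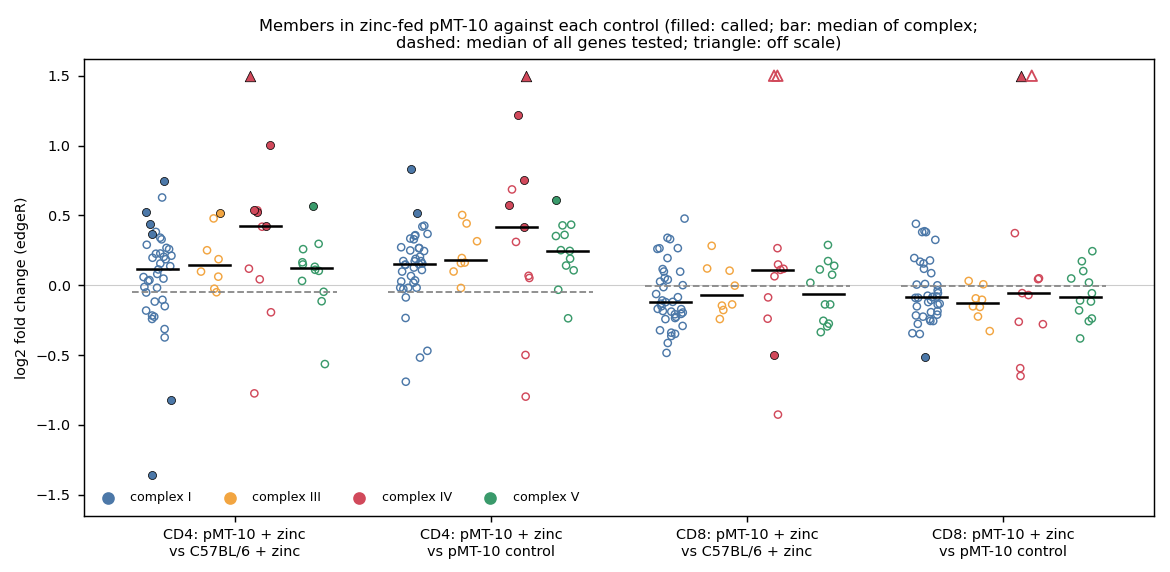
Log2 fold change of each member (point) between induced cells and each control, by complex, in CD4 and CD8 cells; filled points passed an adjusted p under 0.05 and triangles lie off the scale. Complex IV holds 5 called members in each CD4 comparison, and the CD8 comparisons hold 1 and 2 called members. Cox6a2, kept only through its reads in induced cells, is one of each 5 and one of the 2.

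Cox5a and Cox5b, nuclear-encoded subunits present in every complex IV, rose against both controls. Cox5a (chr9:57521274-57532426, plus strand, GRCm38) stood at 251, 180.04 and 204 CPM in induced CD4 libraries, 77.2, 116 and 123 in wild-type and 96.2, 83.8 and 92.9 in uninduced ones. All 3 induced libraries lay above all 6 controls. Its mean was 2.01 times that of wild type (log2 fold change 1.01 ± 0.18 SE, adjusted p = 0.000485) and 2.33 times that of uninduced cells (1.22 ± 0.19, adjusted p = 6.68e-05). It held its call without any single library and under all 8 other settings tried. The last part of Cox5a shares 269 exonic bases with Gm26631, a non-coding gene on the opposite strand that is not on the panel.

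Cox5b (chr1:36691449-36693681, plus strand) stood at 241, 156 and 189 CPM in induced, 115, 142 and 149.6 in wild-type and 115, 122 and 111 in uninduced CD4 libraries. Induced library 2, the lowest of its group, was still above the highest control library. Its mean was 1.44 times that of wild type (0.52 ± 0.15, adjusted p = 0.0186) and 1.68 times that of uninduced cells (0.75 ± 0.15, adjusted p = 0.00127). Against wild type the call was lost in 2 of 6 fits that each left out a library, where adjusted p reached 0.145.

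Cox6a2, the muscle isoform of subunit 6a, gave the largest fold change of the members but rested on few reads. It was kept in the list only through its reads in induced cells, so its values are a description, without fitted values. Its calls are included in the counts of called members unless these are given without it. Its raw counts were 121, 26 and 84 in induced CD4 libraries, 0, 9 and 6 in wild-type and 0, 7 and 0 in uninduced ones. In CD8 cells they were 53, 36 and 93, 2, 12 and 9 and 0, 2 and 7 in the same order. Every induced library had more Cox6a2 reads than every control library of its cell type. Mean CPM was 14.1-fold that of wild type and 44.2-fold that of uninduced cells in CD4 cells.

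Cox6a2 (chr7:128205435-128206387, minus strand) lies inside the span of Itgad (chr7:128154376-128223816, plus strand), which encodes integrin alpha D, and shares 70 exonic bases with it on the opposite strand. Itgad reads moved the same way, with 132, 74 and 141 in induced, 5, 4 and 11 in wild-type and 1, 5 and 0 in uninduced CD4 libraries. In CD8 libraries they were 63, 42 and 157, 1, 0 and 8 and 0, 0 and 1. Itgad rose in induced CD4 cells against wild type (log2 fold change 4.03 ± 0.81 SE, adjusted p = 0.00111) and in induced CD8 cells against wild type (4.89 ± 0.87 SE, adjusted p = 0.000893). The sources used here do not state whether counting used strand, so reads of Cox6a2 and Itgad cannot be told apart where they overlap, and the Cox6a2 values are uncertain for that reason. Its ubiquitous partner Cox6a1 stood at 670.1, 466 and 526 CPM in induced, 583, 597 and 434 in wild-type and 522, 494 and 589 in uninduced CD4 cells, overlapping groups with log2 fold changes of 0.04 (adjusted p = 0.887) and 0.05 (adjusted p = 0.862).

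Of the other complex IV members, Cox7a2 and Cox6b1 passed against both controls in CD4 cells. Cox7a2, the widely expressed isoform of subunit 7a, stood at 185, 131 and 201 CPM in induced, 115, 117 and 123 in wild-type and 125, 109.7 and 113 in uninduced cells, with no overlap (log2 fold changes 0.54 ± 0.17, adjusted p = 0.0284 and 0.57 ± 0.17, adjusted p = 0.0209). Cox6b1, which bridges the monomers of the complex IV dimer, stood at 410.4, 301 and 404, 231, 290.4 and 312 and 263, 288 and 282 CPM. Induced library 2 overlapped wild type and lay just above uninduced cells (0.42 ± 0.14, adjusted p = 0.0466 and 0.42 ± 0.14, adjusted p = 0.0469). Both lost their call in at least 4 of 6 fits that left out a library. The muscle isoform Cox7a1 had 7, 5 and 14 reads in induced, 9, 15 and 5 in wild-type and 13, 29 and 16 in uninduced CD4 libraries and was not called (-0.19 (adjusted p = 0.901) and -0.80 (adjusted p = 0.539)).

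Cox4i1, the main isoform of subunit 4, stood at 165, 146 and 198 CPM in induced CD4 cells against 166, 159.7 and 142 and 155, 150.2 and 179.7 and did not pass (0.12 (adjusted p = 0.624) and 0.07 (adjusted p = 0.798)). Its partner isoform Cox4i2 was below the read minimum. Cox8a, the ubiquitous subunit 8, had only 33, 31 and 32 reads in induced, 12, 40 and 13 in wild-type and 20, 26 and 29 in uninduced CD4 libraries (0.54 (adjusted p = 0.56) and 0.69 (adjusted p = 0.437)). Ndufa4, which copurifies with complex IV, had log2 fold changes of 0.08 (adjusted p = 0.747) and 0.10 (adjusted p = 0.687). Cox7b had values of 0.42 (adjusted p = 0.105) and 0.31 (adjusted p = 0.237), and the testis isoform Cox6b2 -0.77 (adjusted p = 0.539) and -0.50 (adjusted p = 0.713). Counts per gene depend on how well its single amplicon works, so levels of different genes are not compared.

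**Figure D3:**
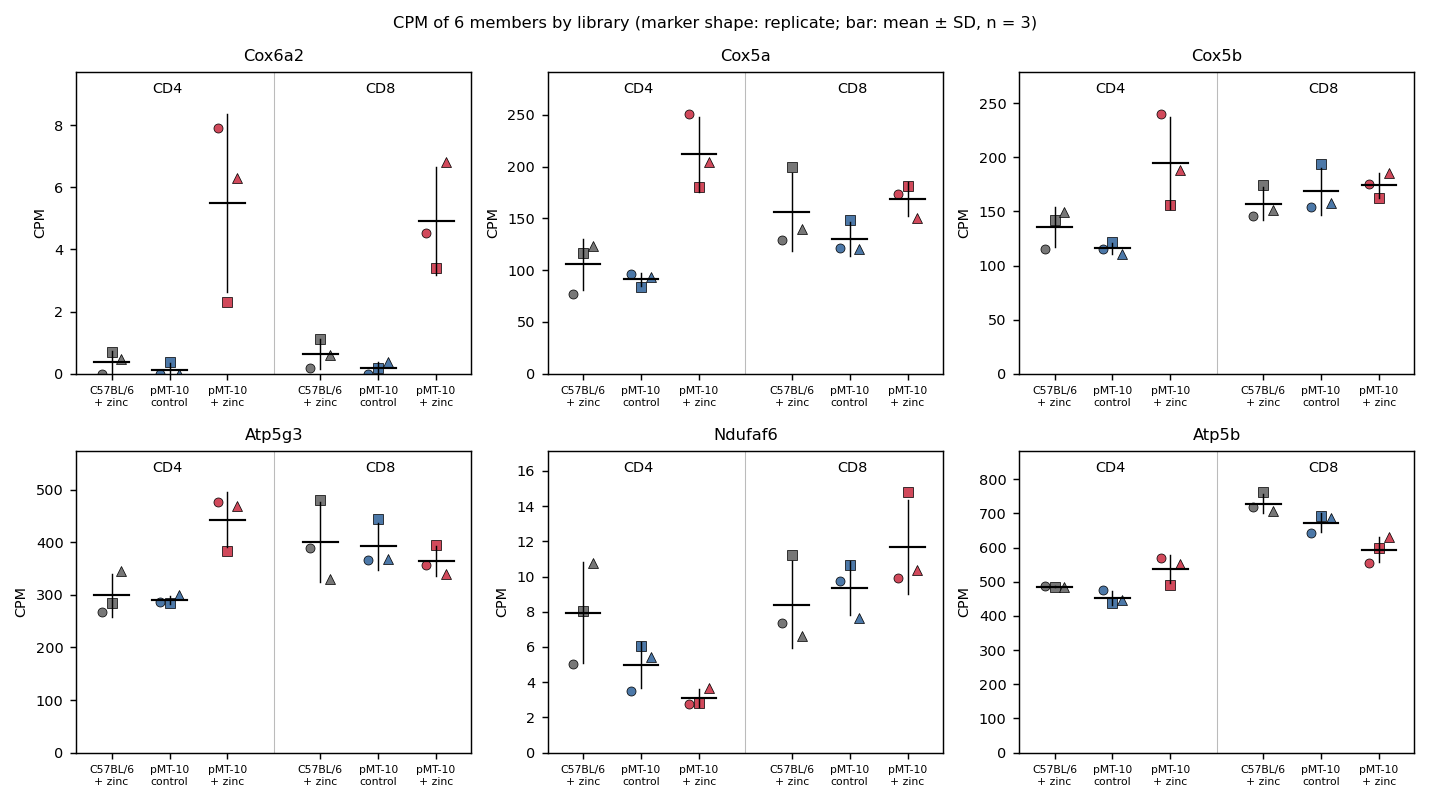
CPM of Cox6a2, Cox5a, Cox5b, Atp5g3, Ndufaf6 and Atp5b in each library (points) with the group mean (line), by group; each panel has its own axis from 0. Induced CD4 libraries lie above all control CD4 libraries for Cox5a, Cox5b, Atp5g3 and Cox6a2 (whose reads cannot be told from Itgad's where the genes overlap), and Atp5b is higher in control CD8 than in control CD4 libraries.

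In complex V, Atp5g3 was the member that rose in induced CD4 cells against both controls. It is one of the genes for subunit c, which forms the proton-carrying ring of Fo. Atp5g3 (chr2:73908447-73911326, minus strand) stood at 477, 384 and 470.1 CPM in induced, 268, 284 and 346 in wild-type and 288, 284 and 299 in uninduced CD4 libraries. All 3 induced libraries lay above all 6 controls, at 1.48 and 1.53 times the control means (0.57 ± 0.14, adjusted p = 0.00701 and 0.61 ± 0.14, adjusted p = 0.00394). The call held without any single library in both comparisons. Subunit c is also made from Atp5g1 and Atp5g2. Neither symbol is among the 77 genes on the panel with these prefixes, so the total RNA for subunit c was not measured. How reads matching such copies were treated is not given in the sources used here.

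The F1 subunits did not pass in either CD4 comparison. Atp5b, the catalytic beta subunit, stood at 569.6, 491 and 552 CPM in induced, 487, 484 and 484 in wild-type and 477, 437 and 446 in uninduced CD4 cells (0.15 (adjusted p = 0.344) and 0.25 (adjusted p = 0.102)). Atp5a1, the alpha subunit, stood at 708, 717 and 650.3, 589, 639 and 666 and 585, 566 and 593 CPM (0.13 (adjusted p = 0.534) and 0.25 (adjusted p = 0.2)). All 5 F1 subunits had positive values in both CD4 comparisons, with medians of 0.15 and 0.25. For 4 of the 5, induced CD4 libraries lay wholly above uninduced ones, beside 21% of all genes. Against wild type this held for 1 of the 5, beside 18.6%. Atp5o, the subunit that holds F1 to the stalk, had values of 0.03 (adjusted p = 0.904) and 0.35 (adjusted p = 0.0726). It shares 287 exonic bases on the same strand with Donson, which fell in induced CD4 cells (-0.61 ± 0.14 SE, adjusted p = 0.0036 against wild type).

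The promoters of Cox5a, Cox5b and Atp5g3 are shown because these genes rose together in induced CD4 cells and kept their calls against uninduced cells whichever single library was left out. They are the 250 bases before each gene's start, from RefSeq on GRCm38.p6, written 5′ to 3′ on the gene's strand. For Cox5a and Cox5b the RefSeq start differs from the GENCODE start given above. Capitals mark TGCGCA, the core of sites of NRF1, a regulator of many respiratory genes.
Cox5a promoter, chr9:57520982-57521231, plus strand: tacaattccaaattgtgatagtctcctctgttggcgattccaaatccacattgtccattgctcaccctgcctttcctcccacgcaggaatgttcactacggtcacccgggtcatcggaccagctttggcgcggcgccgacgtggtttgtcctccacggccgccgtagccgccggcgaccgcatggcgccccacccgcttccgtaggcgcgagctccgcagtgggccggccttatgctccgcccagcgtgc
Cox5b promoter, chr1:36691237-36691486, plus strand: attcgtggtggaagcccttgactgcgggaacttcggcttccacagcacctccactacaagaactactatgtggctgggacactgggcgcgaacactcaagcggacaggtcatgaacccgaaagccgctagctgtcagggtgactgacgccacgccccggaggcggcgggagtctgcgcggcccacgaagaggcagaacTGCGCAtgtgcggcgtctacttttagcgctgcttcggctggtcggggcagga
Atp5g3 promoter, chr2:73911327-73911576, minus strand: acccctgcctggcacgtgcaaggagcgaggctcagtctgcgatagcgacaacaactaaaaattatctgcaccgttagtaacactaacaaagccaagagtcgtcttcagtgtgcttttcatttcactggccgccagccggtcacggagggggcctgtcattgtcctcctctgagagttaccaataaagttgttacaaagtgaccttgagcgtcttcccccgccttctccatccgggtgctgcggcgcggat
Of these, Cox5b held TGCGCA, and none of the 3 held CCGGAAG, which ETS factors such as GABPA bind, or AAGATGG, which YY1 binds, in windows from 250 bases before to 50 after the start. Promoters of 57 of the 70 members were matched by symbol. Searched on both strands (TGCGCA reads the same on each), TGCGCA was in 21.1% of those windows against 8.79% of all 27025 gene promoters, CCGGAAG in 22.8% against 9.93%, and AAGATGG in 15.8% against 7.28%. By call, TGCGCA was in 1 of 9 members that rose in induced CD4 cells against wild type and in 11 of 47 not called. CCGGAAG was in 1 of 9 and 12 of 47, and AAGATGG in 0 of 9 and 9 of 47. In CD8 against CD4 cells of wild type the 3 motifs were in 4, 1 and 2 of 13 risen members. Among 44 not called they were in 8, 12 and 7. These counts were not tested. All are matches of letters and not shown sites of binding.

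In complex I, the subunits that rose in induced CD4 cells were accessory ones. Ndufv3, a small subunit of the NADH-binding matrix arm, stood at 37.7, 28.5 and 36.6 CPM in induced, 16.5, 19.2 and 25.8 in wild-type and 17.8, 20.4 and 19.5 in uninduced libraries, with no overlap (0.74 ± 0.23, adjusted p = 0.029 and 0.83 ± 0.23, adjusted p = 0.0145). Ndufa1, a membrane-arm subunit encoded on the X chromosome, stood at 334, 242 and 361, 221, 240.2 and 192 and 226, 181 and 246 CPM. Its induced library 2 lay just above wild type and inside the uninduced range (0.52 ± 0.16, adjusted p = 0.0299 and 0.52 ± 0.16, adjusted p = 0.0308). Ndufa10, also an accessory subunit, rose against wild type (0.44 ± 0.14, adjusted p = 0.0351) and had 0.37 ± 0.14, adjusted p = 0.0775 against uninduced cells. Ndufb11, a further X-linked membrane-arm subunit, rose against wild type (0.36 ± 0.12, adjusted p = 0.0405) with 0.27 ± 0.12, adjusted p = 0.129 against uninduced cells. Against wild type each of the 4 genes kept its call in 2 of 6 fits that left out a library, and against uninduced cells Ndufv3 did in 3 and Ndufa1 in 2. Sex differed between wild-type and pMT-10 libraries, and its part in the X-linked values was not tested.

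None of the 7 core subunits, which carry the flavin and iron-sulphur clusters, passed in either CD4 comparison or in either CD8 comparison of induced with control cells. Their medians in CD4 cells were -0.15 against wild type and 0.03 against uninduced cells. Ndufs1, the largest core subunit, stood at 218, 247 and 229.7 CPM in induced, 194, 216 and 193 in wild-type and 179, 199 and 238 in uninduced CD4 cells (0.20 (adjusted p = 0.368) and 0.17 (adjusted p = 0.451)). Ndufv1, which binds NADH and the flavin, stood at 58.4, 49.0 and 62.2, 72.2, 82.0 and 46.3 and 67.2, 64.3 and 68.2 CPM (-0.24 (adjusted p = 0.43) and -0.23 (adjusted p = 0.444)). Induced CD4 libraries of Ndufs1 lay above all wild-type ones, beside 18.6% of all genes, and overlapped uninduced ones. Those of Ndufv1 overlapped wild type and lay below all uninduced ones, beside 22.3% of all genes.

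The 2 members that fell in induced CD4 cells against wild type are complex I assembly factors rather than subunits. Ndufaf6 (chr4:11051045-11076205, minus strand) stood at 2.74, 2.84 and 3.67 CPM in induced, 5.02, 8.03 and 10.8 in wild-type and 3.49, 6.03 and 5.41 in uninduced CD4 libraries. All induced libraries lay below all wild-type ones, at 0.39 times the mean (-1.36 ± 0.35, adjusted p = 0.00762), and they overlapped uninduced cells, where the test was not passed (-0.69 ± 0.34, adjusted p = 0.178). In CD8 cells Ndufaf6 stood at 9.90, 14.8 and 10.4, 7.38, 11.2 and 6.63 and 9.76, 10.6 and 7.63 CPM in the same order. Those groups overlapped (0.48 (adjusted p = 0.422) and 0.32 (adjusted p = 0.636)). Ndufaf5, which modifies a core subunit during assembly, stood at 8.16, 10.3 and 13.3 CPM in induced, 19.7, 20.8 and 15.6 in wild-type and 14.1, 13.7 and 17.8 in uninduced CD4 cells. Induced cells were lower than wild type without overlap (-0.82 ± 0.21, adjusted p = 0.00925), and had -0.52 ± 0.21, adjusted p = 0.0978 against uninduced cells. The call for Ndufaf6 held without any single library, and that for Ndufaf5 in 5 of 6 such fits.

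In complex III, Uqcrq rose against wild type in CD4 cells. This small subunit stood at 57.8, 57.1 and 67.9 CPM in induced, 41.5, 49.8 and 36.4 in wild-type and 43.5, 44.3 and 46.7 in uninduced CD4 libraries, with induced cells above both (0.52 ± 0.17, adjusted p = 0.0386 and 0.44 ± 0.17, adjusted p = 0.0766). The call held in 2 of 6 fits that left out a library. Uqcrfs1, the Rieske iron-sulphur protein, stood at 95.0, 68.8 and 87.7, 72.2, 81.1 and 58.3 and 84.4, 64.4 and 76.2 CPM, overlapping both controls (0.25 (adjusted p = 0.283) and 0.16 (adjusted p = 0.509)). Uqcrc1, a core protein of the complex, stood at 225, 217 and 205, 214, 229 and 215 and 205, 214 and 237 CPM (-0.03 (adjusted p = 0.904) and -0.02 (adjusted p = 0.927)).

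In CD8 cells few members moved. Against wild type 0 rose and 1 fell, where 5.68% of all genes were called higher and 3.13% lower. At an unadjusted p under 0.05 there were 12 members (17.1%), beside 22.9% of all genes. DESeq2's Wald test called 1 member higher and 4 lower, beside 4.46% and 2.51% of the 19957 genes it tested. The median was -0.10 with 30 of 70 positive, and turned to 0.03 with 42 positive when wild-type CD8 library 2 was left out. Against uninduced cells 1 rose and 1 fell, beside 5.1% and 2.64% of all genes, with a median of -0.09, which ran from -0.15 to -0.02 when single libraries were left out. The 1 that rose was Cox6a2, and without it 0 of 69 rose. There 5 members (7.14%) had an unadjusted p under 0.05, beside 21.2% of all genes. Induced CD8 libraries lay wholly above the control for 5 members in each comparison, beside 12.2% and 11.9% of all genes, and wholly below for 11 and 9, beside 11.4% and 11.2%.

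Cox6a1 was the member that fell against wild type in CD8 cells. It stood at 425, 543 and 545 CPM in induced, 709, 749 and 683 in wild-type and 699.7, 622 and 514 in uninduced CD8 libraries. All induced libraries lay below all wild-type ones (-0.50 ± 0.16, adjusted p = 0.0478) but overlapped uninduced cells (-0.28 ± 0.16, adjusted p = 0.322). The call was lost in each of 6 fits that left out a library. Ndufb10, a membrane-arm subunit of complex I, fell against uninduced cells. Its values were 108, 103 and 106 CPM in induced, 151, 124 and 133 in wild-type and 144, 143 and 167 in uninduced CD8 cells, with induced cells lowest without overlap (-0.52 ± 0.13, adjusted p = 0.0151, and -0.36 ± 0.13, adjusted p = 0.0871 against wild type). The Ndufb10 call held in 4 of 6 fits that left out a library.

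Cox5a, Cox5b and Atp5g3 did not pass in CD8 cells. Cox5a stood at 174, 182 and 150.3 CPM in induced, 129, 199.7 and 139.6 in wild-type and 122, 149 and 120.0 in uninduced CD8 libraries (0.11 (adjusted p = 0.78) and 0.37 (adjusted p = 0.248)). Cox5b stood at 175, 162 and 185, 146, 175 and 152 and 154, 194 and 158 CPM (0.15 (adjusted p = 0.62) and 0.05 (adjusted p = 0.909)). Atp5g3 stood at 358, 396 and 339, 389.9, 481 and 331 and 366, 445 and 368 CPM (-0.14 (adjusted p = 0.625) and -0.11 (adjusted p = 0.729)). Induced libraries overlapped both CD8 controls for Cox5b and Atp5g3, and for Cox5a they overlapped wild type and lay just above uninduced cells. The muscle isoform Cox7a1 had 25, 25 and 16 reads in induced, 7, 3 and 8 in wild-type and 8, 2 and 7 in uninduced CD8 libraries. Induced reads carried Cox7a1 past the minimum too, 66 of them in CD8 and 26 in CD4 libraries, so its CD8 counts are given with no test. It stays among the 69 members counted without Cox6a2. Among the F1 subunits Atp5b had -0.29 (adjusted p = 0.0776) and -0.18 (adjusted p = 0.334), and Atp5a1 -0.28 (adjusted p = 0.215) and -0.12 (adjusted p = 0.675).

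Between the control groups, uninduced pMT-10 and wild-type mice, no member passed in either cell type. The count was 0 in CD4 cells, where 0.0795% of all genes were called higher and 0.0619% lower, and 0 in CD8 cells, beside 0.0265% and 0.0707%. DESeq2's Wald test also called 0 members in both, and 1 member (1.43%) in each had an unadjusted p under 0.05, beside 4.43% and 6.34% of all genes. Medians were -0.09 in CD4 and 0.01 in CD8 cells. Uninduced libraries lay wholly above wild type for 0 members in CD4 and 2 in CD8 cells, beside 6.14% and 4.56% of all genes, and wholly below for 4 and 3, beside 5.48% and 4.51%. These groups differ in strain, sex, zinc and chip together.

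In control mice, CPM of many members was higher in CD8 than in CD4 libraries of the same kind of mouse. The labels do not link libraries to mice, so the tests treated CD4 and CD8 libraries as independent even if they came from the same mice. In wild type, 15 of 70 rose in CD8 against CD4 cells and 0 fell, where 9.28% of all genes were called higher and 12.9% lower. The median was 0.30 with 66 of 70 positive, and 0.16 with 58 positive without wild-type CD8 library 2. In uninduced mice 21 rose and 0 fell, beside 8.94% and 12.8% of all genes, with a median of 0.39 and 65 positive. In induced mice 4 rose and 1 fell, beside 13.4% and 14.7%, with a median of 0.09 and 44 positive. That median was 0.04 without CD4 library 2, 0.05 without CD8 library 2 and 0.14 without CD4 library 3. CD8 libraries lay wholly above CD4 libraries for 20 members in wild type, 42 in uninduced and 11 in induced mice, beside 16.2%, 17.4% and 20% of all genes. Within each kind of mouse both cell types ran on the same chip. Leaving out single libraries gave 7 to 14 risen members in wild type, with 7 without CD4 library 1 and 9 without CD8 library 2. In uninduced mice it gave 8 to 25, with 8 without CD8 library 2 and 13, 9 and 11 without CD4 libraries 1, 2 and 3. Of the called members, 5 of 15 in wild type, 6 of 21 in uninduced and 2 of 5 in induced mice kept their call whichever single library was left out.

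**Figure D4:**
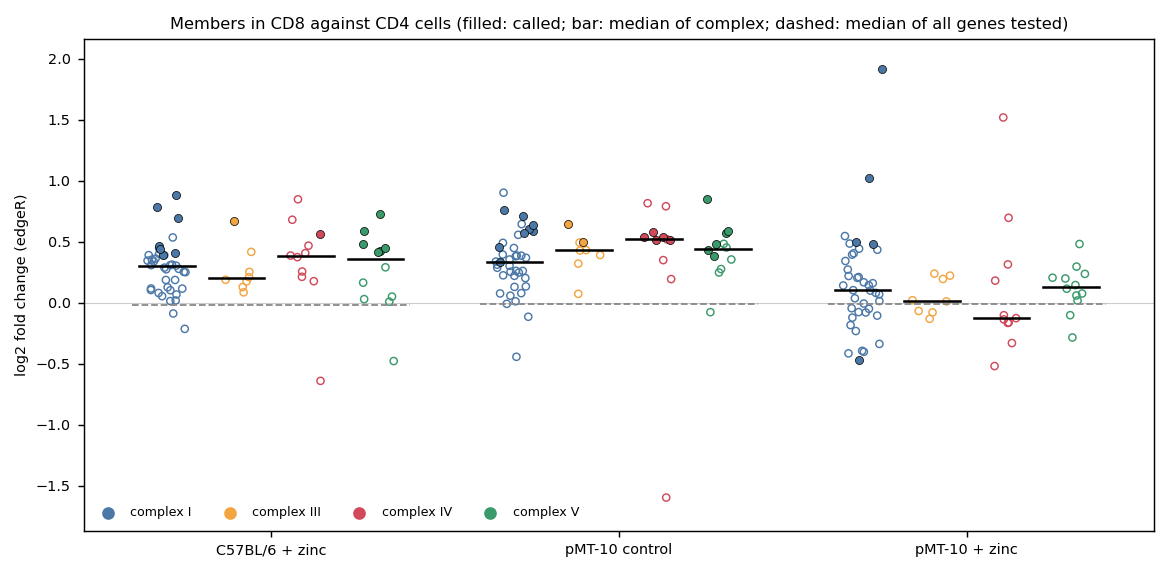
Log2 fold change of each member (point) in CD8 against CD4 cells, by complex, in wild-type, uninduced and induced mice; filled points passed an adjusted p under 0.05. In the control mice 15 and 21 points are called higher and 0 lower, and in induced mice 4 higher and 1 lower.

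Complex V held 6 of the risen members in each control kind, 3 and 4 of them F1 subunits. Atp5b stood at 718, 761 and 708 CPM in wild-type CD8 against 487, 484 and 484 in wild-type CD4 libraries, and at 643, 692 and 685 against 477, 437 and 446 in uninduced mice. The cell types were far apart in both kinds of mice (0.59 ± 0.10, adjusted p = 0.000208 and 0.57 ± 0.10, adjusted p = 0.000282). In induced mice Atp5b stood at 555, 598 and 631 in CD8 and 569.6, 491 and 552 in CD4 libraries, which overlapped (0.15 ± 0.10, adjusted p = 0.31). Atp5a1 rose in CD8 cells of both control kinds (0.43 ± 0.13, adjusted p = 0.023 and 0.39 ± 0.13, adjusted p = 0.0392) and had 0.02 ± 0.13, adjusted p = 0.935 in induced mice. Atp5a1 shares exonic bases with Haus1 on the opposite strand. Atp5sl, which is not a subunit, rose in wild type (0.73 ± 0.20, adjusted p = 0.0116). Atp5o stood at 117, 147 and 122 CPM in uninduced CD8 and 76.1, 70.2 and 67.8 in uninduced CD4 libraries, well apart (0.85 ± 0.13, adjusted p = 6.9e-05), with 0.48 ± 0.13, adjusted p = 0.0122 in wild type and 0.12 ± 0.13, adjusted p = 0.558 in induced mice.

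Complex I gave 7 risen members in wild type and 8 in uninduced mice. Ndufa10 stood at 157, 182 and 191 CPM in wild-type CD8 and 96.1, 98.7 and 112 in wild-type CD4 libraries, without overlap (0.79 ± 0.14, adjusted p = 0.00031), with 0.59 ± 0.14, adjusted p = 0.00427 in uninduced mice. Ndufaf4, an assembly factor, stood at 40.2, 53.6 and 58.3 CPM in CD8 and 29.5, 25.5 and 27.3 in CD4 libraries of wild type (0.89 ± 0.21, adjusted p = 0.00372). It also rose in induced mice, from 21.0, 19.2 and 23.2 in CD4 to 37.8, 55.3 and 36.4 in CD8 cells (1.03 ± 0.21, adjusted p = 0.000988), and in uninduced mice (0.64 ± 0.21, adjusted p = 0.0313). Of the others in wild type, Ndufc1 had 0.70 (adjusted p = 0.0275), and the largest in uninduced mice were Ndufa6 with 0.76 (adjusted p = 0.00156) and Ndufb10 with 0.71 (adjusted p = 0.000323). In induced mice the largest was Ndufaf6, at 1.92 ± 0.35, adjusted p = 0.000284, followed below Ndufaf4 by Ndufa6 with 0.50 (adjusted p = 0.026), while Ndufaf3 fell (-0.47 (adjusted p = 0.0301)). Core subunits were positive in all 7 cases in both control kinds, with 0 called in wild type and Ndufv2 called in uninduced (0.57 (adjusted p = 0.0234)) and induced mice (0.48 (adjusted p = 0.0443)).

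In complex III, Uqcrfs1 stood at 107, 123 and 106 CPM in wild-type CD8 and 72.2, 81.1 and 58.3 in wild-type CD4 libraries, without overlap (0.67 ± 0.15, adjusted p = 0.00309). It also rose in uninduced mice (0.50 ± 0.15, adjusted p = 0.0239) and had 0.24 (adjusted p = 0.26) in induced mice. Uqcrc1 did not pass in any of the 3 kinds (0.09 (adjusted p = 0.638), 0.07 (adjusted p = 0.7) and -0.13 (adjusted p = 0.395)). In complex IV the risen member of wild type was Cox5a (0.57 ± 0.18, adjusted p = 0.0301), which lost its call in 2 of 6 fits leaving out a library. Uninduced mice had 5 risen members there, Cox7b (0.58 (adjusted p = 0.0205)), Cox5b (0.54 (adjusted p = 0.0138)), Cox7a2 (0.54 (adjusted p = 0.0255)), Cox5a (0.52 (adjusted p = 0.0482)) and Cox4i1 (0.51 (adjusted p = 0.0142)). Of 6 fits that left out a library, Cox5a kept this call in 0, Cox4i1 in 2, Cox7b and Cox7a2 in 3 and Cox5b in 4. In induced mice 0 of 11 complex IV members passed, with a median of -0.13. Cox8a had 0.82 (adjusted p = 0.343) in uninduced and -0.52 (adjusted p = 0.528) in induced mice, on few reads.

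Whether the induced-against-control difference itself differed between CD8 and CD4 cells was tested with an interaction contrast, as the CD8 log2 difference minus the CD4 one. With wild type as control 1 member passed upwards and 2 downwards, beside 3.41% and 2.08% of all genes, and the median was -0.23 with 18 of 70 positive. With uninduced mice as control 0 passed upwards and 3 downwards, beside 2.44% and 1.34%, with a median of -0.28 and 12 positive. Medians for complex IV were -0.38 and -0.48, and all 5 F1 subunits were negative with each control. The median of all genes was 0.05 with each control. Scaling by library size alone put it at 0.21 and 0.22, left the members' medians at -0.07 and -0.10, and called 0 members downwards with either control.

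Atp5g3 passed with both controls (-0.70 ± 0.20, adjusted p = 0.0427 and -0.72 ± 0.20, adjusted p = 0.048). Its CD4 differences were 0.57 and 0.61 and its CD8 differences -0.14 and -0.11. Cox5a passed with wild type as control (-0.90 ± 0.26, adjusted p = 0.0448, and -0.85 ± 0.26, adjusted p = 0.0688 with uninduced mice), and so did Ndufaf6, in the other direction (1.84 ± 0.48, adjusted p = 0.0276, and 1.02 ± 0.48, adjusted p = 0.254). With uninduced mice as control, Atp5o (-0.73 ± 0.19, adjusted p = 0.0335) and Ndufb10 (-0.72 ± 0.18, adjusted p = 0.031) passed. Each of these lost its call in at least 6 of 12 fits that left out a library.

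Other genes of the pathway were read from lists that had been drawn up with results of these data known. Complex II, which feeds electrons from succinate, had 0 of 4 genes called in every comparison, with CD4 medians of 0.12 and 0.14 for induced against wild-type and uninduced cells. Of 8 complex I assembly factors outside the Nduf prefix, 0 were called between induced and control cells. Of all genes, 9.29% and 9.38% were called higher and 9.4% each lower in CD4 cells against wild type and uninduced cells. In CD8 cells 5.68% and 5.1% were called higher and 3.13% and 2.64% lower. Lists of 4 and 8 genes are too small to set 0 calls apart from such shares. In CD8 against CD4 cells 2 of the 8 rose in wild type, 1 in uninduced and 3 in induced mice, and 0 fell. That is 25%, 12.5% and 37.5%, beside 9.28%, 8.94% and 13.4% of all genes. Of 25 assembly factors of complexes III, IV and V, 2 rose and 2 fell in induced CD4 cells against wild type (8% each way), close to the 9.29% and 9.4% of all genes. Those that rose were Cmc2, which helps build complex IV, at 0.96 (adjusted p = 0.0339), and Cox15, a haem A synthesis enzyme, at 0.67 (adjusted p = 0.0358). Uqcc1, for complex III, and Cox14, for complex IV, fell (-0.51 (adjusted p = 0.0237) and -0.51 (adjusted p = 0.0294)). Against uninduced cells 3 of 25 (12%, beside 9.38% of all genes) rose and 0 fell. They were Cmc2 (1.00 (adjusted p = 0.0277)), Cmc1 (0.83 (adjusted p = 0.0229)) and Surf1 (0.66 (adjusted p = 0.0169)). Cmc1 and Surf1 also serve complex IV assembly. In CD8 cells Pet100, a further complex IV assembly factor, was the 1 of 25 that rose against wild type (0.77 (adjusted p = 0.041)), 4% beside 5.68% of all genes. In CD8 against CD4 cells 6 of the 25 rose in wild type and 6 in uninduced mice, and 0 fell. That is 24% each, beside 9.28% and 8.94% of all genes called higher and 12.9% and 12.8% lower. In induced mice 3 rose and 1 fell (12% and 4%, beside 13.4% and 14.7%). Cyc1, cytochrome c1 of complex III, rose in CD8 against CD4 cells in wild type (0.46 (adjusted p = 0.00519)), uninduced (0.40 (adjusted p = 0.0134)) and induced mice (0.49 (adjusted p = 0.00244)).

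Between the libraries of a group the members as a whole varied about as much as all genes tested or less. The median SD of log2 CPM over 3 libraries was 0.110 to 0.264 for members by group, against 0.184 to 0.265 for all genes tested. Complex IV varied more than all genes in induced CD4 cells (0.266 against 0.212). It also did in wild-type CD4 (0.256 against 0.247) and wild-type CD8 cells (0.283 against 0.265), and varied less in the other groups. Another annotated gene shared exonic bases with 26 of the 70 members, 18 of them with a gene on the panel, and reads of such pairs are uncertain where strand was not used. These include Atp5d with Cbarp, Atp5o with Donson, Cox4i1 with Emc8 and Ndufs1 with Eef1b2.

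**Figure D5:**
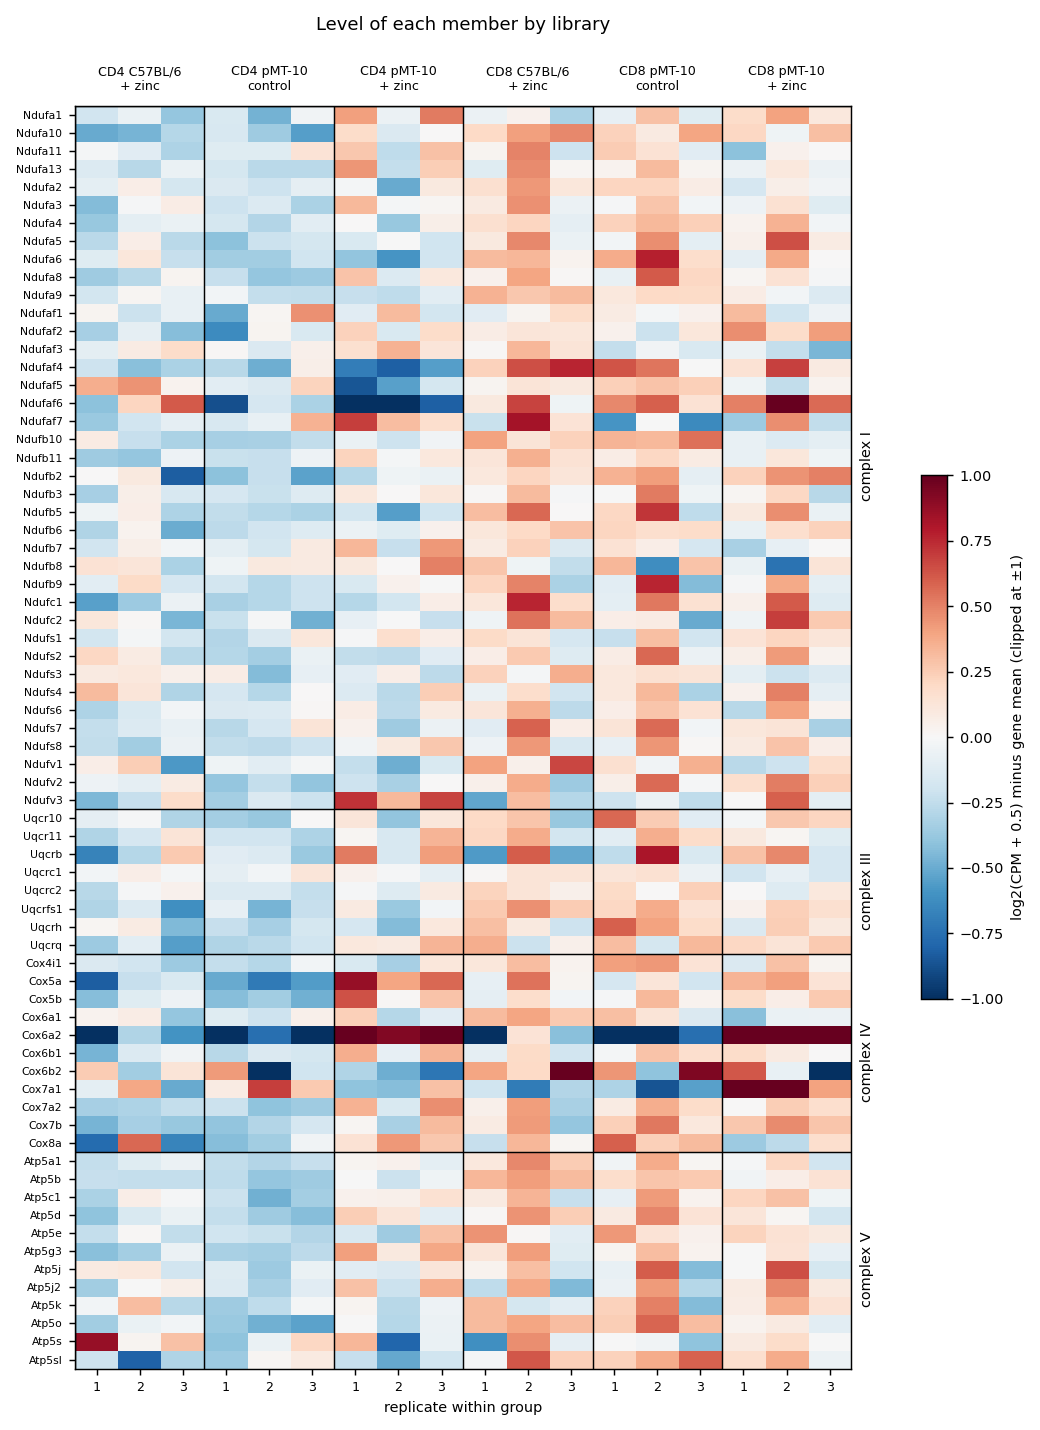
Each row is a member, grouped by complex, and each column a library, grouped by cell type and mouse; colour is log2(CPM + 0.5) minus the gene's mean over the 18 libraries, limited to 1 unit either way. Control CD4 columns are mostly below the mean and library 2 of each CD8 group is high for most members (52, 45 and 47 of 70 were highest there).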

How the data were processed

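The deposited values are raw counts of reads per amplicon, 1 amplicon a gene, deposited without scaling, as the whole numbers in the files show. The submitters' processing notes give the build as mm10. For the aligner, the counter, the use of strand and the treatment of reads matching several genes, nothing is given in the sources used here. The members and gene lists were chosen with earlier results of these data known. One list of marker genes is not reported here.

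Each column was matched to its sample by barcode and chip as the labels give them. The filterByExpr filter kept 11316 genes, and TMM scaling was applied. One quasi-likelihood fit with robust estimation in edgeR 4.0.16 (R 4.3.3) covered all 18 libraries as 6 group means, and each comparison was a contrast of it. Calls were made at an adjusted p under 0.05, by the Benjamini-Hochberg method across the genes kept. Adjusted p in the text comes from this test unless DESeq2 (1.42.0) is named. Folds are ratios of mean CPM, and log2 fold changes are fitted values with SE taken as the size of the change over the root of F. Groups have n = 3 libraries each. Intervals of counting error are not given because reads without molecular identifiers are not independent molecules. The script was tested on simulated counts.

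Genes were named by a rule: in each comparison of induced cells with a control and in CD8 against CD4 cells of wild type, the 3 called members of each complex and direction with the largest change. For other comparisons it was the 3 largest in each direction, with catalytic subunits and isoform families always named. Gene positions are from GENCODE M21 on GRCm38, found for 69 of 70 members. Alternatives were other scalings, filters, a non-robust fit, a fit to only the groups compared, DESeq2 and leaving out each library.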

Additional observations from a re-analysis of the deposited data

Results flagged for a closer look

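The change between induced and control cells differed between CD8 and CD4 cells, by the interaction contrast, for 5 genes. Of these Atp5g3, a source of ATP synthase subunit c, differed with both controls, by -0.70 (log2, CD8 minus CD4) with wild type and -0.72 with uninduced mice. With wild type as control, Cox5a of complex IV differed by -0.90 and the complex I assembly factor Ndufaf6 by 1.84. With uninduced mice as control, Atp5o of the ATP synthase stalk differed by -0.73 and Ndufb10 of complex I by -0.72. Adjusted p ran from 0.0276 to 0.048 in edgeR's quasi-likelihood test, close to the threshold. None of these calls held whichever single library was left out. Of 12 such fits each, Atp5g3 kept its call in 3 with wild type and 1 with uninduced mice, Cox5a in 3, Ndufaf6 in 6, Atp5o in 4 and Ndufb10 in 3. With scaling by library size alone 0 members were called downwards with either control.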

How the results depend on the processing

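No paired analysis was possible because the labels give no replicate numbers shared between groups. Of 74 results for named genes that were called, 22 kept their call under every alternative and 0 changed sign. Counts of called members moved as well. In induced CD4 cells against wild type the risen count of 11 became 7 with upper-quartile scaling and 3 with library size only, and against uninduced cells 8 became 5 with library size only (with 2 fallen), 18 with a fit to only the groups compared and 15 with DESeq2. In induced CD8 cells against wild type 1 member rose without a filter, with only the groups compared or with DESeq2, and the 1 fallen member became 0 under DESeq2 size factors, upper-quartile scaling, library size only, a summed-count minimum, a non-robust fit and only the groups compared, and 4 under DESeq2. Against uninduced cells DESeq2 called 2 higher, and only the groups compared 0 lower. For CD8 against CD4 cells, 8 rose in wild type with only the groups compared. In induced mice 8 rose with library size only, and 0 fell with library size only, no filter or only the groups compared. In uninduced mice 11 rose with library size only. In the interaction with wild type, only the groups compared gave 0 higher, and upper-quartile scaling, library size only and only the groups compared gave 0 lower, DESeq2 5. With uninduced mice DESeq2 gave 1 higher and 7 lower, and library size only 0 lower. Library size only moved the median of all genes, as it skips TMM. The cause of the other moves was not tested.

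Leaving out single libraries gave, in induced CD4 cells, 2 to 14 risen and 1 to 2 fallen members against wild type and 4 to 11 risen against uninduced cells. In induced CD8 cells it gave 0 risen and 0 fallen against wild type, and 0 to 1 of each against uninduced cells. CD8 against CD4 cells gave 7 to 14 risen in wild type, 8 to 25 in uninduced mice, and 2 to 4 risen and 0 to 1 fallen in induced mice. The interaction gave 0 to 1 higher and 0 to 5 lower with wild type and 0 to 6 lower with uninduced mice. Depth limits Cox6a2, Cox6b2, Cox7a1 and Cox8a, the members with the fewest reads.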

Other observations

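Of 69 mitochondrial ribosomal protein genes, which make the ribosome that translates the mitochondrially encoded subunits, 2 rose and 4 fell in induced CD4 cells against wild type (2.9% and 5.8%, beside 9.29% and 9.4% of all genes), and 3 rose and 4 fell against uninduced cells (4.35% and 5.8%, beside 9.38% and 9.4%). Mrpl4 rose in both (0.74 (adjusted p = 0.00284) and 0.62 (adjusted p = 0.00968)), as did Mrpl52 (0.60 (adjusted p = 0.00451) and 0.69 (adjusted p = 0.00132)), while Mrps27 fell (-0.72 (adjusted p = 0.0207) and -0.67 (adjusted p = 0.0308)). In induced CD8 cells Mrpl30 fell against wild type and uninduced cells (-0.56 (adjusted p = 0.0306) and -0.64 (adjusted p = 0.0144)). In CD8 against CD4 cells 10 rose in wild type, 16 in uninduced and 12 in induced mice (14.5%, 23.2% and 17.4%), and 0 fell. Of all genes, 9.28%, 8.94% and 13.4% were called higher there and 12.9%, 12.8% and 14.7% lower.

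Of 16 regulators of mitochondrial biogenesis, 0 rose and 2 fell (12.5%, beside 9.4% of all genes called lower) in induced CD4 cells in each comparison. The genes that fell were Polg, the mitochondrial DNA polymerase (-0.61 (adjusted p = 0.0102) against wild type and -0.65 (adjusted p = 0.00655) against uninduced cells), and Polrmt, the mitochondrial RNA polymerase (-0.53 (adjusted p = 0.0427) and -0.67 (adjusted p = 0.0101)). In induced CD8 cells 0 were called against either control. Of all genes, 5.68% were called higher and 3.13% lower there against wild type, and 5.1% and 2.64% against uninduced cells. In CD8 against CD4 cells of wild type 4 rose and 2 fell (25% and 12.5%, beside 9.28% and 12.9% of all genes). In uninduced mice 3 of the 16 rose and 1 fell (18.8% and 6.25%, beside 8.94% and 12.8%). In induced mice 5 rose and 1 fell (31.2% and 6.25%, beside 13.4% and 14.7%). Ppargc1b, Pprc1 and Tfb1m rose in all 3 kinds. Peo1 also rose in wild type, and Polrmt and Ppargc1a in induced mice. Log2 fold changes on this list reached 7.07 in CD8 against CD4 cells of induced mice. In induced CD4 cells against wild type they went down to -4.72, for a gene that was not called. Ppargc1b, a coactivator of respiratory genes, was higher in CD8 than in CD4 cells of wild type (0.84 (adjusted p = 0.0261)), uninduced (0.98 (adjusted p = 0.00967)) and induced mice (1.30 (adjusted p = 0.000975)). Pprc1, a related coactivator, had 0.99 (adjusted p = 0.00176), 0.78 (adjusted p = 0.0116) and 1.53 (adjusted p = 2.35e-05) in the same order. Tfb1m, which methylates mitochondrial ribosomal RNA, had 0.93 (adjusted p = 0.0246), 0.85 (adjusted p = 0.0382) and 0.98 (adjusted p = 0.0163). Gabpb1, part of the ETS factor GABP, fell in CD8 against CD4 cells in all 3 kinds (-0.54 (adjusted p = 0.00829), -0.54 (adjusted p = 0.0081) and -0.62 (adjusted p = 0.00264)).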
